A study of Arabidopsis thaliana with 8 samples.

Results

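The chromatin of 10 genes that make or inactivate gibberellin was followed through germination of Arabidopsis thaliana, with the dry seed at one end and the young seedling at the other. The members described are the accessible chromatin regions (ACRs) whose summit lay between 1500 bp upstream of the start and 500 bp downstream of the end of one of these genes, on the strand of the gene. At these genes the rule used position alone and no measured value, but the genes were chosen with earlier results of these data known. It gave 20 ACRs at 9 of the 10 genes, of 30223 ACRs in all. GA20OX1 (AT4G25420) had 4 ACRs, GA2OX2 (AT1G30040), GA2OX6 (AT1G02400) and GA3 (AT5G25900) had 3 each, GA20OX2 (AT5G51810) and GA3OX2 (AT1G80340) had 2 each, and GA20OX3 (AT5G07200), GA3OX1 (AT1G15550) and GA1 (AT4G02780) had 1 each. No ACR summit lay in the window of GA2 (AT1G79460), for which nothing further is given. GA1, GA2 and GA3 are gene symbols here, not hormones.

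Open DNA, where the Tn5 transposase can insert sequencing adapters, was profiled by ATAC-seq in wild-type Col-0 at 4 stages with 2 libraries each. The stages were dry seed (DS), germinating seed after 6 h of light (L6), germinating seed after 26 h of light (L26) and seedling after 57 h of light (L57), with no mutant or added agent in any group. Seeds for the stages in light were first stratified in water in the dark and then shaken in liquid medium under continuous light. Dry seeds had gone through neither step. Comparisons with DS therefore span water uptake, stratification and light together, and their parts cannot be told apart. The extraction protocol describes embryos of germinating seeds squeezed out of their coats, and it does not state how dry seeds and seedlings were handled, so that a change of tissue and a change of stage cannot be told apart in comparisons with DS or L57. The labels do not say whether the 2 libraries of a stage came from separate cultures, so the p-values may reflect spread between libraries alone. That spread was estimated mostly from all ACRs together and only in small part from the libraries at the ACR tested.

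Total counts over all ACRs lay between 1534759 and 3734831 per library and were lowest at L57, so that values at L57 were the least precise. Replicate libraries correlated at r = 0.914 to 0.960 across ACRs, which are not independent. Of 6 genes of the maturing embryo and dry seed, 5 had a promoter ACR, and the summed CPM (counts per library scaled for depth) of these 5 reached 395 and 414 at L6 but 973 and 935 in DS. All 5 of 5 seedling genes had one, with sums of 475 and 449 CPM at L57 and 229 and 216 CPM in DS. Of 5 seed coat genes, 3 had one, and 0 of 4 endosperm genes had one. The seed coat sums were 40.9 and 46.2 CPM in DS, 51.9 and 39.5 CPM at L6, 83.8 and 90.9 CPM at L26, and 67.6 and 79.7 CPM at L57. The changes of these markers ran alongside those described here, and their part in them was not tested.

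Gibberellins are diterpenoid hormones that promote germination and growth, opposed in seeds by abscisic acid. GA1 (ent-copalyl diphosphate synthase), GA2 (ent-kaurene synthase) and GA3 (ent-kaurene oxidase) act early in the pathway, GA20-oxidases (GA20OX) and GA3-oxidases (GA3OX) carry out its last steps to the active hormone, and GA2-oxidases (GA2OX) inactivate it. In imbibed Arabidopsis seeds, light acting through phytochrome is known to raise GA3OX1 and GA3OX2 transcripts and to lower that of GA2OX2. Accessibility marks DNA that regulatory proteins can reach, and an ACR need not act on the gene it lies nearest to.

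The changing ACRs of 4 loci are shown by the 201 bases around their summits, which carried the smallest p of each locus in the test over all 4 stages. Each is written 5′ to 3′ on the strand of its gene, with matches to 9 motifs in capitals. They were chosen as the leading ACR of each gene, and GA20OX3, whose window runs into the 5′ UTR, is left out. Coordinates are those of TAIR10, with the bases read from the RefSeq copy of that genome (TAIR10.1).
GA2OX6 upstream, chr1:485610-485810, plus strand: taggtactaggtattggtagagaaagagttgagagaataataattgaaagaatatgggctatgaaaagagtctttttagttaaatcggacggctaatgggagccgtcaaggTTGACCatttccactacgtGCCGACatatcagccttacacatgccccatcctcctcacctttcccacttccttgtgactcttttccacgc
GA20OX2 upstream, chr5:21057526-21057726, minus strand: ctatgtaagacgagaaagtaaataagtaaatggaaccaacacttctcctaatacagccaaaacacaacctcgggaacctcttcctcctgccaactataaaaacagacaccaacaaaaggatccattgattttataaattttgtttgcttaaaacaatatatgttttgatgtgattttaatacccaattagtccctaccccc
GA3OX1 coding exon, chr1:5344899-5345099, minus strand: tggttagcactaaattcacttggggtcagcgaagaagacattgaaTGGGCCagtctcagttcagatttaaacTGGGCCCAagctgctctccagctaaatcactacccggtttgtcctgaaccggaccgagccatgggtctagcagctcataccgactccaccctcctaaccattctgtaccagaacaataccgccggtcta
GA3OX2 upstream, chr1:30203263-30203463, minus strand: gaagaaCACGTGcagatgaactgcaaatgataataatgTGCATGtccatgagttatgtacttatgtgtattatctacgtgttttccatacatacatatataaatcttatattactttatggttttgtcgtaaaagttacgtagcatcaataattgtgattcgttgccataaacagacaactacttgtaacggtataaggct

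The window at GA2OX6 held a W-box (TTGACC), found in 11.6% of all ACR windows of this length, and a DRE (GCCGAC), found in 3.18%. The window at GA3OX2 held a G-box (CACGTG; 10.8% of all ACRs) and an RY element (CATGCA, here as TGCATG on the other strand; 9.58%). The window at GA3OX1 held the site II element (TGGGCC; 18.1%) in 3 matches, a pair of which overlap on opposite strands. The window at GA20OX2 held none of the 9 motifs, which says only that these letters are not there. Motifs were sought on both strands, and the others were GARE (TAACAAA; 5.39% of all ACRs), ABRE (ACGTGGC or ACGTGTC; 9.84%), telo-box (AAACCCT; 5.77%) and I-box (GATAAG; 12.4%). Over all 20 members, the W-box was in 4, the G-box, RY and site II elements were in 2 each, and the other 5 motifs were in 1 each. Both members with site II lay in coding exons of the related genes GA3OX1 and GA3OX2. A match is a description of the letters and not a bound site.

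The 20 ACRs were 250 to 1311 bp wide (median 531.5 bp), against 200 to 3474 bp for all ACRs (median 522 bp). Of the summits, 5 lay upstream of the gene, 13 within it and 2 downstream. A coding exon held 9, in at least 1 annotated transcript, and 7 were intergenic, 3 in a 5′ UTR and 1 in an intron. Their level, averaged over the 8 libraries, was 10.3 to 101 CPM with a median of 24.0, and the median of all ACRs was 23.3 CPM. Behind these levels stood 5 to 640 counts per ACR and library.

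**Figure D1:**
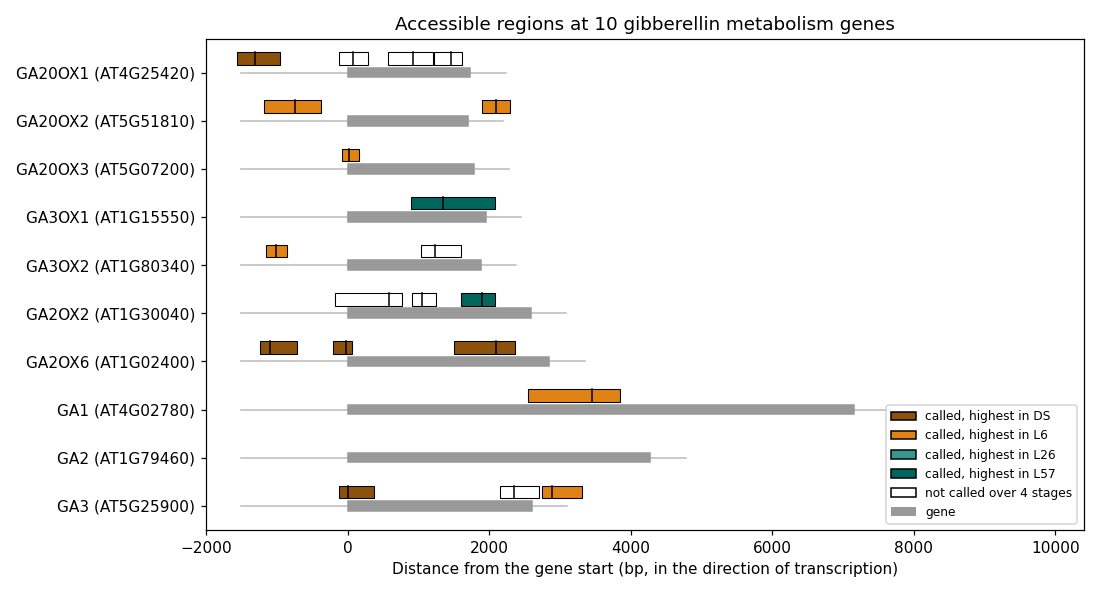
Position of the 20 ACRs (boxes, with a black line at the summit) at the 10 genes (grey bars), by distance from the gene start in bp along the direction of transcription. Box colour gives the stage with the highest mean CPM of the 13 ACRs called over all 4 stages, and open boxes are the 7 not called. All 5 upstream summits are filled, and GA2 has no box.

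Over all 4 stages, accessibility changed at 13 of the 20 ACRs, at all 9 genes, where 56.6% of all ACRs changed (edgeR's quasi-likelihood test, Benjamini-Hochberg adjusted p under 0.05 over 30223 ACRs). Of these 13, 5 were highest in DS (26.3% of all ACRs that changed), 6 at L6 (25.5%), 0 at L26 (21.0%) and 2 at L57 (27.3%). The 7 intergenic members all changed (66.8% of all intergenic ACRs did), as did 3 of 9 in coding exons (43.5% of all such ACRs), 2 of 3 in a 5′ UTR (55.5%) and the 1 in an intron (56.3%). Counting in any comparison, 15 ACRs passed a test with the deposited scaling. The other 5, of which 3 lie at GA20OX1 and 1 each at GA2OX2 and GA3, had 8.19 to 35.7 CPM per library and adjusted p of 0.0987 to 0.984 between stages.

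**Figure D2:**
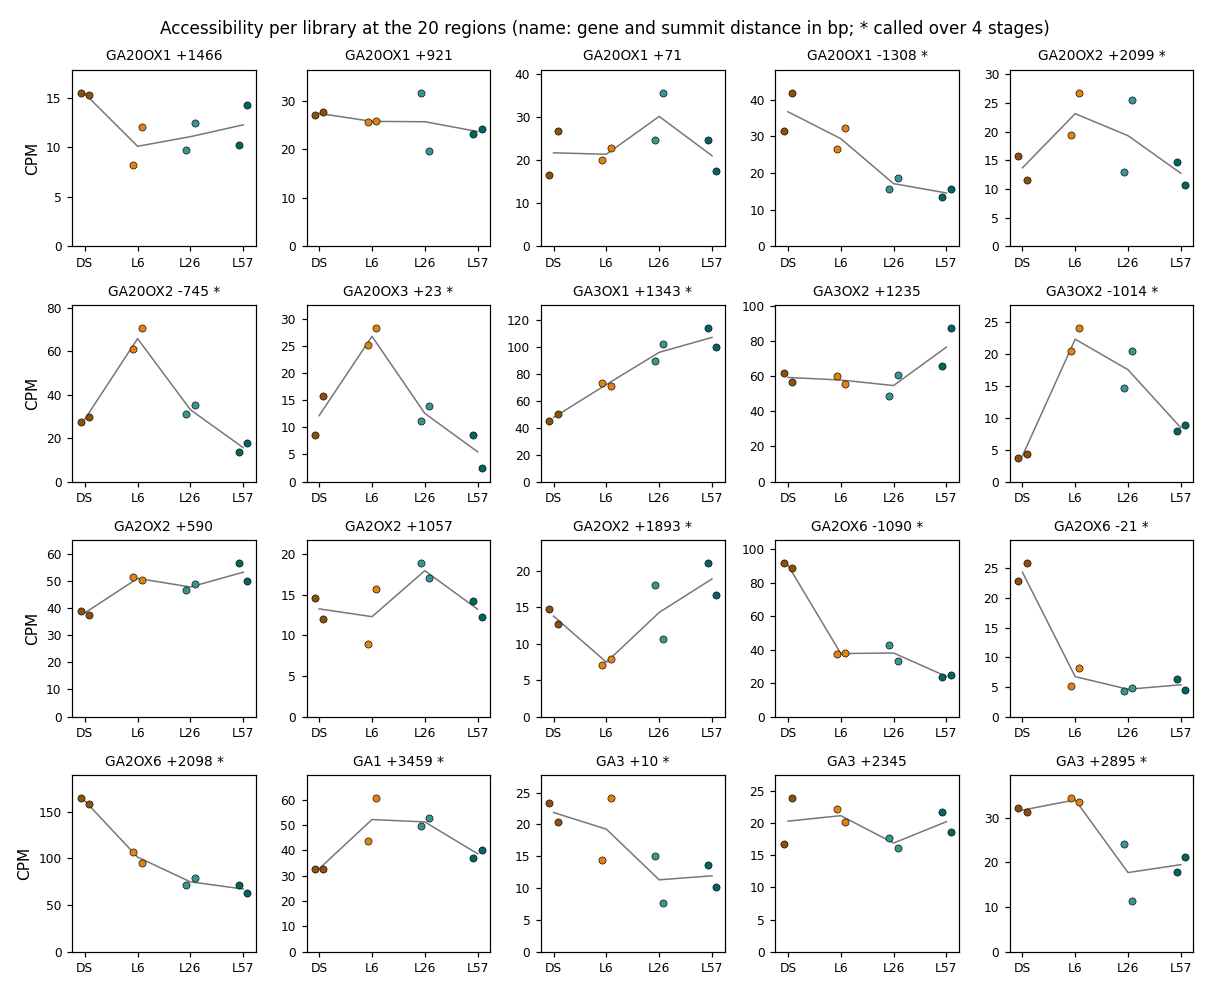
CPM in each of the 8 libraries (points) at the 20 ACRs, with the stages in order on the x axis and a line through the means of 2 libraries. Panel names give the gene and the summit's distance from its start in bp, and a star marks a change over all 4 stages. GA2OX6 panels are highest in DS, whereas GA20OX2, GA20OX3 and the upstream ACR of GA3OX2 are highest at L6.

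The first comparison set seed that had taken up water, been stratified and then had 6 h of light against the dry seed. At L6 against DS, 7 members were higher and 4 were lower, where 17.6% of all ACRs were higher and 14.3% lower, and 9 did not pass. These shares differed by place: of all intergenic ACRs, 28.3% were higher and 9.78% lower. In coding exons they were 4.07% and 19.5%, in a 5′ UTR 22.0% and 7.74%, and in introns 11.6% and 16.6%. The rises at GA20OX2 and GA3OX2 were at intergenic ACRs. Of the 4 members at gene starts (400 bp upstream to 100 bp downstream), 1 was higher and 1 lower. Of 14 ACRs at the 7 synthesis genes, 6 rose and 0 fell, and this split depended on the scaling: it was 6 and 1 with TMM factors or DESeq2 size factors, 5 and 1 with total counts, and 4 and 1 with offsets corrected for GC content. Of 6 ACRs at the 2 inactivation genes, 1 rose and 4 fell. The difference between these roles was not tested, and the 4 that fell lie at only 2 loci. The median log2 fold change was 0.08 over the synthesis ACRs and −0.77 over the inactivation ACRs, with −0.03 over the members and −0.01 over all ACRs. At 14 members, among them the 11 that passed, both L6 libraries lay on the same side of both DS libraries, as they did at 67.9% of all ACRs. Without L6 replicate 2, the number of higher members was 4.

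**Figure D3:**
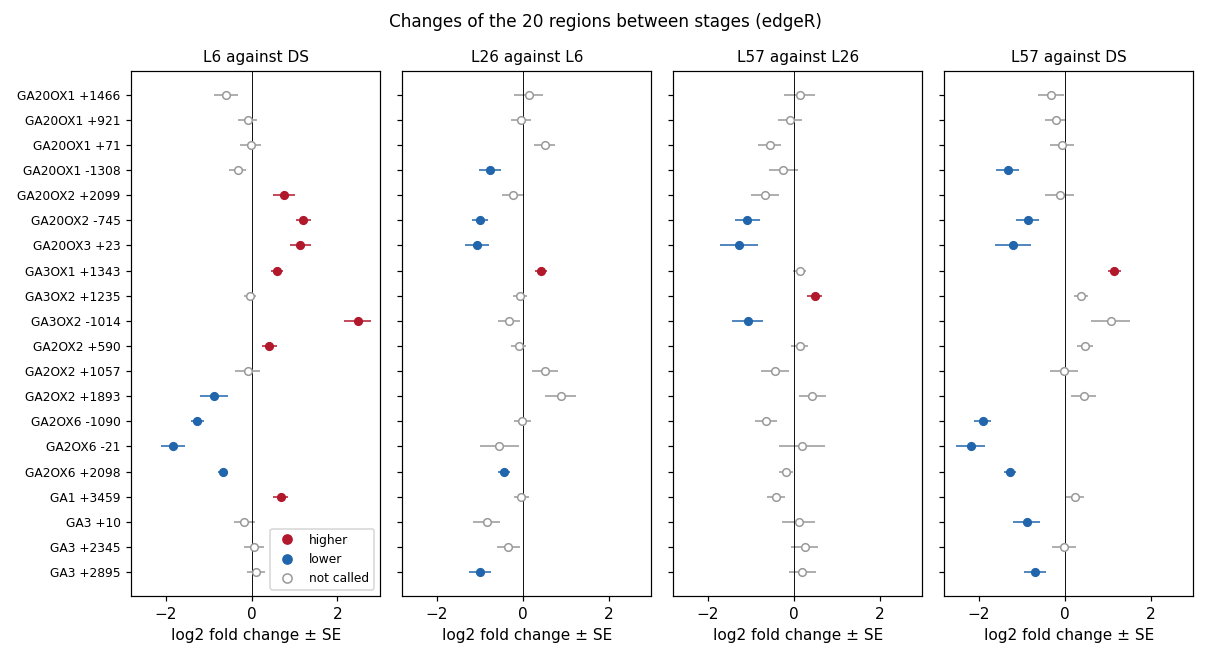
Log2 fold change ± SE of the 20 ACRs in 4 comparisons (edgeR, 2 libraries per stage), with filled points for those that passed an adjusted p of 0.05, red for higher and blue for lower. At L6 against DS, filled points on the right belong to GA20OX2, GA20OX3, GA3OX1, GA3OX2, GA1 and 1 ACR of GA2OX2, and those on the left to GA2OX2 and GA2OX6.

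Fewer members passed at the later steps, and so did fewer of all ACRs. The median SE of the members was 0.229 at L6 against DS, 0.255 at L26 against L6 and 0.310 at L57 against L26. Fewer calls therefore need not mean fewer changes. At L26 against L6, 1 member was higher (8.71% of all ACRs) and 5 were lower (7.91%), with a median of −0.15 and of −0.01 over all ACRs. Of the lower ones, 4 were at synthesis genes. At L57 against L26, 1 was higher (7.53% of all ACRs) and 3 were lower (6.19%), all at synthesis genes, with a median of −0.13 and of −0.02 over all ACRs. At L57 against DS, 1 was higher (17.0% of all ACRs) and 8 were lower (12.2%), of which 5 were at synthesis genes and 3 at GA2OX6, with a median of −0.16 and of −0.01 over all ACRs. Libraries did not overlap at 13 members at L26 against L6 (54.4% of all ACRs), at 11 at L57 against L26 (54.5%) and at 16 at L57 against DS (63.6%). Neighbouring comparisons have libraries in common, so a chance deviation at 1 stage enters both. Single libraries decided several counts: 2 lower members at L26 against L6 were left without L26 replicate 2, 5 at L57 against DS without L57 replicate 2, and 1 at L57 against L26 without L26 replicate 2 or either L57 library.

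**Figure D4:**
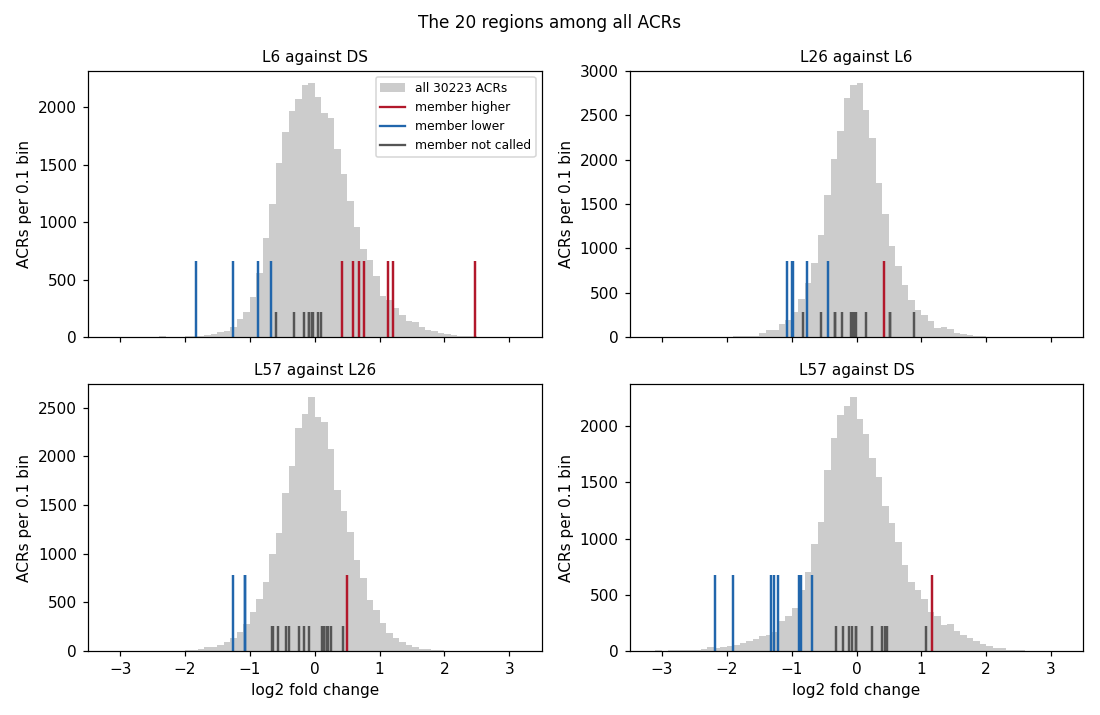
Distribution of the log2 fold change of all 30223 ACRs (grey bars, number of ACRs per bin of 0.1) in the 4 comparisons, with the 20 members as vertical lines, tall and coloured where they passed the test and short and dark where they did not. At L6 against DS the members span −1.83 to 2.47, reaching both tails.

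Of the early genes, GA1 had a single ACR in an intron, 3459 bp downstream of the gene start (chr4:1240968-1242278). It had 32.8 and 32.7 CPM in DS, 43.7 and 60.6 CPM at L6, 49.7 and 52.7 CPM at L26, and 37.1 and 40.2 CPM at L57. Both L6 libraries lay above both DS libraries, and the L57 libraries lay between DS and L6. It rose at L6 against DS by 0.68 ± 0.18 on the log2 scale (SE, adjusted p = 0.00131), and its change over all 4 stages passed at 0.00124. Without L6 replicate 2 the adjusted p at L6 against DS was 0.153, and with offsets corrected for GC content it was 0.0842, with 0.123 over all 4 stages.

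GA3 had 3 ACRs. The one at its start (chr5:9035691-9036184, summit in the 5′ UTR, 10 bp downstream of the start) had 23.3 and 20.4 CPM in DS, 14.4 and 24.1 CPM at L6, 15.0 and 7.61 CPM at L26, and 13.6 and 10.2 CPM at L57. The L6 libraries overlapped those of DS, and both L57 libraries lay below them. At L57 against DS it fell by 0.89 ± 0.31 on the log2 scale (adjusted p = 0.0188), a call lost without DS replicate 1 (adjusted p = 0.102), without L57 replicate 2 (0.259), with total counts (0.0691) and in DESeq2 (0.190). Its change over all 4 stages passed at 0.00321, and at 0.131 it did not pass in DESeq2. At L26 against L6 it passed as a fall with GC-corrected offsets (0.0488) and without L6 replicate 1 (0.0190) or L26 replicate 1 (0.0183).

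The ACR downstream of GA3 (chr5:9038563-9039131) also lies 148 bp upstream of the start of RLP52 (AT5G25910), a receptor-like protein gene, within the promoter window of that gene. It had 32.1 and 31.2 CPM in DS, 34.4 and 33.6 CPM at L6, 24.1 and 11.4 CPM at L26, and 17.8 and 21.2 CPM at L57. Its DS and L6 libraries all lay above its L26 and L57 libraries. It fell by 0.99 ± 0.25 on the log2 scale at L26 against L6 (adjusted p = 0.00196) and by 0.69 ± 0.26 at L57 against DS (0.0318). Without L26 replicate 2, the lower of the L26 libraries, the call against L6 was lost at −0.47 (adjusted p = 0.355), and without L26 replicate 1 the fall was −1.57 (0.000264), and in DESeq2 its adjusted p was 0.0531. The call at L57 against DS was lost without any 1 of the DS or L57 libraries (adjusted p of 0.0643 to 0.220), with DESeq2 size factors (0.0589) or total counts (0.108), and in DESeq2 (0.193). The third ACR, in the last part of the coding sequence, passed no test.

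GA20-oxidases make the precursors of the active hormones. Of the 4 ACRs at GA20OX1, 3 within the gene passed no test with the deposited scaling. One of them, in a coding exon 1466 bp downstream of the start (chr4:12990974-12991368), had 8.19 and 12.0 CPM at L6, against 15.5 and 15.3 CPM in DS, and its difference of −0.60 (adjusted p = 0.0987) became a fall with TMM factors (−0.75, 0.0316), DESeq2 size factors (−0.73, 0.0371) and total counts (−0.82, 0.0190). The ACR over the start, 71 bp downstream, passed as a rise at L26 against L6 with total counts (0.69, 0.0321), and over all 4 stages without DS replicate 2 (0.0443) or L26 replicate 1 (0.0485). The fourth ACR lay 1308 bp upstream (chr4:12993541-12994141, intergenic). This ACR had 31.5 and 41.9 CPM in DS, 26.6 and 32.1 CPM at L6, 15.6 and 18.6 CPM at L26, and 13.6 and 15.5 CPM at L57. The DS and L6 libraries overlapped, and all 4 lay above the 4 later libraries. It fell by 0.77 ± 0.26 on the log2 scale at L26 against L6 (adjusted p = 0.0246) and by 1.32 ± 0.27 at L57 against DS (2.13e-05). The first of these was lost without L6 replicate 2 (adjusted p = 0.201), L26 replicate 1 (0.161) or L26 replicate 2 (0.0814), with total counts (0.0846) and in DESeq2 (0.153), and the call at L57 against DS held in all alternatives run. At L6 against DS its difference was −0.32 (0.217), and with GC-corrected offsets it passed as a fall (−0.79, 0.000923).

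At GA20OX2 the upstream ACR (chr5:21057261-21058069), with its summit 745 bp before the gene start, was the second of the sequences printed above. It had 27.7 and 29.8 CPM in DS, 60.9 and 70.9 CPM at L6, 30.9 and 35.3 CPM at L26, and 13.6 and 17.6 CPM at L57. Both L6 libraries lay above the other 6, and both L57 libraries lay below the other 6. It rose by 1.20 ± 0.17 on the log2 scale at L6 against DS (adjusted p = 3.5e-09), then fell by 0.99 ± 0.19 at L26 against L6 (1.51e-05) and by 1.07 ± 0.28 at L57 against L26 (0.00422). The level at L57 was also lower than in DS (−0.86 ± 0.27, adjusted p = 0.00948). Of all intergenic ACRs, 28.3% rose at L6 against DS. With GC-corrected offsets the rise at L6 against DS was 0.69 (0.00104), and the GC content of this whole ACR, 29.9%, was the lowest of the members. It was the only member with a change in all 4 comparisons besides the ACR of GA20OX3. Its L57 calls rested on few libraries: without L57 replicate 1 the adjusted p was 0.0962 against L26 and 0.136 against DS, and without L26 replicate 2 it was 0.0511 against L26.

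The ACR downstream of GA20OX2 (chr5:21054585-21054976, intergenic) had 15.8 and 11.6 CPM in DS, 19.5 and 26.8 CPM at L6, 13.0 and 25.6 CPM at L26, and 14.8 and 10.7 CPM at L57. Both L6 libraries lay above those of DS, and the L26 libraries were far apart. It rose at L6 against DS by 0.76 ± 0.26 on the log2 scale (adjusted p = 0.0157), a call lost without DS replicate 2 (0.202) or L6 replicate 2 (0.261), with total counts (0.0647) or GC-corrected offsets (0.276) and in DESeq2 (0.238). Over all 4 stages its adjusted p was 0.0129, a call lost without DS replicate 2 (0.0680), L6 replicate 2 (0.136) or L57 replicate 2 (0.0658), with total counts (0.0871) or GC-corrected offsets (0.195) and in DESeq2 (0.312).

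GA20OX3 had 1 ACR, the narrowest member, over its start (chr5:2245174-2245423, summit in the 5′ UTR, 23 bp downstream of the start). It had 8.62 and 15.7 CPM in DS, 25.2 and 28.3 CPM at L6, 11.2 and 14.0 CPM at L26, and 8.53 and 2.45 CPM at L57. Both L6 libraries lay above all others, and the libraries at L57 held only 15 and 5 counts. It rose by 1.14 ± 0.25 on the log2 scale at L6 against DS (adjusted p = 0.000131) and fell by 1.07 ± 0.28 at L26 against L6 (0.00253). Per kb of ACR its mean of 107 CPM at L6 compares with 81.5 CPM per kb in the upstream ACR of GA20OX2. Of all ACRs with a summit in a 5′ UTR, 22.0% rose at L6 against DS.

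At L57 the ACR of GA20OX3 was lower than at L26 by 1.27 ± 0.45 (adjusted p = 0.0408) and lower than in DS by 1.20 ± 0.42 (0.0198). Without L57 replicate 2, the library with 5 counts, these were −0.58 (adjusted p = 0.541) against L26 and −0.52 (0.519) against DS, and without L57 replicate 1 they were −2.36 (0.0260) against L26 and −2.30 (0.00749) against DS. Other exclusions ended the call against L26 (without L26 replicate 1, 0.0562; without L26 replicate 2, 0.214), the call against DS (without DS replicate 2, 0.364) and the rise at L6 (without DS replicate 1, 0.0541). All 4 were lost in DESeq2, at adjusted p of 0.0807 at L6 against DS, 0.157 at L26 against L6, 0.173 at L57 against L26 and 0.121 at L57 against DS. The call against L26 was also lost with TMM factors (0.0503), DESeq2 size factors (0.0566), total counts (0.0725) and GC-corrected offsets (0.0685).

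GA3-oxidases make the active hormones, and GA3OX1 and GA3OX2 are the members of this family in the set. The ACR of GA3OX1 (chr1:5344261-5345439) had its summit in a coding exon, 1343 bp downstream of the start. It had 44.9 and 50.6 CPM in DS, 73.5 and 71.0 CPM at L6, 90.1 and 102 CPM at L26, and 114 and 100 CPM at L57. Libraries of L6, L26 and L57 lay above those of DS, those of L26 lay above those of L6, and L57 and L26 overlapped. It was the only member that rose at L57 against DS, by 1.16 ± 0.15 on the log2 scale (adjusted p = 9.45e-11).

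GA3OX1 was also tested step by step. It rose by 0.60 ± 0.14 on the log2 scale at L6 against DS (adjusted p = 0.000445) and by 0.42 ± 0.14 at L26 against L6 (0.0228). The difference at L57 against L26 did not pass (adjusted p = 0.56). The call at L26 against L6 was lost with TMM factors (0.341), DESeq2 size factors (0.404) and total counts (0.127), in DESeq2 (0.621), and without L6 replicate 1 (0.1), L6 replicate 2 (0.154) or L26 replicate 2 (0.284). Of all ACRs in coding exons, 4.07% rose at L6 against DS and 19.5% fell.

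The upstream ACR of GA3OX2 (chr1:30203200-30203507, intergenic, summit 1014 bp before the start) had the largest rise of the members. It had 3.75 and 4.23 CPM in DS, from 14 and 16 counts, 20.5 and 24.0 CPM at L6, 14.6 and 20.4 CPM at L26, and 7.97 and 8.85 CPM at L57. Every later library lay above those of DS, and both L57 libraries lay below those of L6 and L26. At L6 against DS it was 5.53-fold higher (2.47 ± 0.32 on the log2 scale, adjusted p = 3.37e-11), number 25 of 30223 ACRs by size of rise. It fell by 1.07 ± 0.35 on the log2 scale at L57 against L26 (adjusted p = 0.0275). At L57 against DS its difference of 1.07 did not pass (0.058), though it passed as a rise under 7 of 17 alternatives. These were TMM factors (0.0473), DESeq2 size factors (0.0424), total counts (0.0287), the earlier (legacy) form of the edgeR test (0.0380), and the fits without L6 replicate 1 (0.0451), L6 replicate 2 (0.0402) or L26 replicate 2 (0.04999).

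That fall at GA3OX2 was lost without L26 replicate 2 (adjusted p = 0.278), L57 replicate 1 (0.155) or L57 replicate 2 (0.120), with total counts (0.0576) or GC-corrected offsets (0.0815), and in DESeq2 (0.174). The rise at L6 was kept in all alternatives run, and 28.3% of all intergenic ACRs rose at L6 against DS. The other ACR of GA3OX2 (chr1:30200743-30201312, coding exon, 1235 bp downstream of the start) had 61.8 and 56.5 CPM in DS, 59.8 and 55.6 CPM at L6, 48.4 and 60.7 CPM at L26, and 65.4 and 87.3 CPM at L57. Its libraries overlapped among the first 3 stages. At L57 against L26 it rose by 0.49 ± 0.18 on the log2 scale (adjusted p = 0.0471), a call close to the threshold that 11 of 18 alternatives ended, among them the removal of L6 replicate 1 (0.0593), L6 replicate 2 (0.0575), L26 replicate 1 (0.310) or L57 replicate 2 (0.553). The same call was lost with all 4 other scalings (0.0983 to 0.192). Over all 4 stages its adjusted p was 0.0503, and it passed with GC-corrected offsets (0.0207), the legacy test (0.0474) or only ACRs above the median CPM (0.0445), and without L26 replicate 2 (0.0262) or L57 replicate 1 (0.0202). At L57 against DS it passed as a rise with GC-corrected offsets (0.00438) and without L26 replicate 1 (0.0455) or L57 replicate 1 (0.0222).

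GA2-oxidases remove active gibberellins and their precursors. All 3 ACRs of GA2OX6 had their highest mean in DS and passed the test over all 4 stages, and 2 of them had the smallest adjusted p of the members there. The ACR 1090 bp upstream (chr1:485568-486089, intergenic), the first of the printed sequences, had 91.9 and 89.1 CPM in DS, 37.3 and 38.2 CPM at L6, 42.7 and 33.5 CPM at L26, and 23.5 and 24.7 CPM at L57. The DS libraries stood above all others, and the L57 libraries below all others. It fell by 1.26 ± 0.15 on the log2 scale at L6 against DS (adjusted p = 2.85e-12) and by 1.91 ± 0.20 at L57 against DS (8.89e-16), with an adjusted p of 5.27e-20 over all 4 stages. At L57 against L26 it passed as a fall under 4 of 18 alternatives: TMM factors (0.0273), DESeq2 size factors (0.0334), the legacy test (0.0389) and without L26 replicate 2 (0.0490).

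The ACR at the start of GA2OX6 (chr1:486600-486865, summit 21 bp upstream) had 22.8 and 25.9 CPM in DS, 5.25 and 8.26 CPM at L6, 4.37 and 4.88 CPM at L26, and 6.28 and 4.47 CPM at L57. The DS libraries lay above all later ones, and those of L57 overlapped both L6 and L26. It had the largest fall of the members, by 1.83 ± 0.28 on the log2 scale at L6 against DS (adjusted p = 2.77e-08) and by 2.19 ± 0.34 at L57 against DS (3.36e-08). In the order of falls over all 30223 ACRs at L6 against DS it was number 46.

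The last ACR of GA2OX6 (chr1:488307-489170, coding exon, 2098 bp downstream of the start) had the highest level per kb of all members, 187 CPM per kb in DS, against 173 CPM per kb at the ACR 1090 bp upstream. It had 164 and 159 CPM in DS, 107 and 95.4 CPM at L6, 71.3 and 78.5 CPM at L26, and 72.0 and 62.5 CPM at L57. The DS libraries lay above those of L6, which lay above those of L26 and L57, and these last overlapped. It fell by 0.67 ± 0.11 on the log2 scale at L6 against DS (adjusted p = 1.46e-07), by 0.43 ± 0.13 at L26 against L6 (0.0128) and by 1.27 ± 0.14 at L57 against DS (1.51e-14). Of all ACRs in coding exons, 19.5% fell at L6 against DS. The fall at L26 against L6 was lost without L6 replicate 1 (0.137), L26 replicate 1 (0.152) or L26 replicate 2 (0.0515), and with TMM factors (−0.72) or DESeq2 size factors (−0.74) it was over 1.5 times as large. The 6 calls of GA2OX6 against DS held in all alternatives run. The dry seed markers fell over the same comparison, and their part in these falls was not tested.

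GA2OX2 had ACRs called in opposite directions at L6 against DS, and the difference between these ACRs was not tested. The ACR over its first part (chr1:10537273-10538223, coding exon, 590 bp downstream of the start) had 38.9 and 37.5 CPM in DS, 51.4 and 50.3 CPM at L6, 46.4 and 49.0 CPM at L26, and 56.5 and 49.7 CPM at L57. Both DS libraries lay below all others. It rose at L6 against DS by 0.41 ± 0.17 on the log2 scale (adjusted p = 0.0482), a call lost without any 1 of the DS or L6 libraries (0.118 to 0.221), under an earlier (legacy) form of the edgeR test (0.0604) and in DESeq2 (0.0586), and its adjusted p over all 4 stages was 0.0689. That change passed with TMM factors (0.0318), DESeq2 size factors (0.0233) or total counts (0.0305). At L57 against DS it passed as a rise with total counts (0.0290), the legacy test (0.0476) or only ACRs above the median CPM (0.0426), and without L26 replicate 1 (0.0466) or L26 replicate 2 (0.0487).

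The ACR towards the end of GA2OX2 (chr1:10539066-10539535, 1893 bp downstream of the start) had 14.8 and 12.8 CPM in DS, 7.05 and 7.87 CPM at L6, 18.0 and 10.6 CPM at L26, and 21.0 and 16.7 CPM at L57. The L6 libraries lay below all others. It fell at L6 against DS by 0.88 ± 0.32 on the log2 scale (adjusted p = 0.0263), a call lost without DS replicate 1 (0.162), L6 replicate 1 (0.142) or L6 replicate 2 (0.0911) and in DESeq2 (0.0894). Over all 4 stages its adjusted p was 0.00511, and 0.0596 without L6 replicate 1. At L26 against L6 it passed as a rise with TMM factors (1.02, 0.0265), DESeq2 size factors (1.00, 0.0304) or total counts (1.11, 0.0146), and without L26 replicate 2 (1.27, 0.0321). The ACR between them passed no test. Of all ACRs in coding exons, 4.07% rose and 19.5% fell at L6 against DS.

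Genes of the pathway outside the set were read by their promoter ACR, with a summit up to 400 bp upstream or 100 bp downstream of an annotated start. Of 15 other genes of gibberellin metabolism, 3 had one, of which 0 were higher and 1 was lower at L6 against DS (17.6% and 14.3% of all ACRs). That was CYP714A1, a cytochrome P450 that inactivates gibberellin, with 50.3 and 43.8 CPM at L6, against 102 and 74.7 CPM in DS (−0.91 ± 0.15, adjusted p = 1.63e-07). Taken by the window used for the members, a choice made after the promoter counts were seen, 11 of these 15 genes had 16 ACRs, of which 3 were higher and 1 was lower at L6 against DS, where 17.6% of all ACRs were higher and 14.3% lower, so that the share of higher ACRs was near that of all ACRs. The rises were at KAO1 (0.91), GA2OX4 (0.44) and CYP714A2 (0.95), so that a GA2-oxidase gene, on the inactivating side, was among those that rose.

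Of 14 genes of gibberellin perception and signaling, 8 had a promoter ACR, of which 2 rose and 0 fell at L6 against DS (17.6% and 14.3% of all ACRs), and 0 rose and 4 fell at L26 against L6 (8.71% and 7.91%). RGA, which encodes a DELLA repressor of the response, had 20.8 and 18.0 CPM at L6, against 3.67 and 3.60 CPM in DS (2.40 ± 0.31, adjusted p = 4.4e-11), and at L26 it fell by 1.20 on the log2 scale (0.00128). RGL3, another DELLA gene, had 121 and 121 CPM at L6, against 72.0 and 66.7 CPM in DS (0.80 ± 0.13, adjusted p = 4.19e-08). The receptor gene GID1A had 27.2 and 23.5 CPM at L57, against 68.8 and 65.1 CPM in DS (−1.41 ± 0.21, adjusted p = 7.37e-09). Over the 8, the median log2 fold change was 0.38 at L6 against DS and −0.51 at L26 against L6, and −0.01 over all ACRs in both.

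Of 14 regulators of gibberellin genes in seeds, 8 had a promoter ACR, of which 4 rose and 2 fell at L6 against DS (17.6% and 14.3% of all ACRs). SOM, a zinc finger gene that holds back germination in the dark, had 129 and 132 CPM at L6, against 232 and 222 CPM in DS (−0.79 ± 0.10, adjusted p = 8.97e-12), and 36.4 and 37.0 CPM at L57. ABI4, a transcription factor gene of the abscisic acid response, had 77.8 and 64.0 CPM at L6, against 18.9 and 28.9 CPM in DS (1.56 ± 0.18, adjusted p = 1.86e-13). The rises also took in SPT, BME3 and RVE1, and the second fall was JMJ20.

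The member with the smallest p over all 4 stages was the ACR 1090 bp upstream of GA2OX6. Of 10086 protein-coding genes with a promoter ACR of at least 10 CPM, the 3 most like it by Pearson's r of log2(CPM + 1) over the 8 libraries were ftsh4 and HSFA2, which share 1 ACR (r = 0.992), and AT1G04560 (r = 0.988). HSFA2 encodes a heat shock transcription factor. The mean CPM of the shared ACR was 136 in DS, 74.8 at L6, 75.9 at L26 and 58.0 at L57. The points are the same 8 libraries throughout and share their depth, so these values are a description.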

How the data were processed

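Accessibility came from 2 deposited tables of 30223 ACRs and 8 libraries. The deposited counts are reads per ACR, and the deposited CPM values are those counts scaled by the authors with csaw offsets that vary with abundance. A deposited peak list gave positions and summits. Tools listed in the submitters' processing notes are Bowtie2 2.4.4 (with TAIR10), MACS3 3.0.0b3, bedtools 2.30.0 and Genrich 0.6.1. ACRs are peaks found in both libraries of a stage and merged over stages, with 1 summit for all libraries together. All columns were mapped to a sample, with 0 left out.

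Offsets rebuilt from the counts (loess span 0.3, limma 3.58.1) matched the deposited scaling to within 1.4e-12 (log scale), with 2 ACRs that hold a zero count set aside. Stages were compared with edgeR 4.0.16 in R 4.3.3 (quasi-likelihood F test, 1 model for 8 libraries, no filter, no block, Benjamini-Hochberg over 30223 ACRs per comparison), with 4 residual degrees of freedom, a prior of 190.8 and a coefficient of variation of 9.73%. The test over all 4 stages used the contrasts among them at once. The SE is the absolute log2 fold change divided by the square root of F. The procedure was also run on simulated counts in which few ACRs changed, balanced in direction and at L6 alone. It therefore did not test the scaling where many ACRs change.

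Genes were placed with the TAIR10.1 annotation, whose chromosomes are those of TAIR10, with 1 ACR each on chromosomes 4 and 5 running past the end. Its gene models may start elsewhere than older ones. Every member that passed a test was named, and the rest are given by range. The members and lists were chosen with earlier results of these data known. Alternatives were other scalings (TMM, DESeq2 size factors, total counts, GC-corrected offsets), the legacy form of the edgeR test, the DESeq2 1.42.0 test, a count filter, ACRs above the median CPM, the compared stages alone, a replicate block and each library left out.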

Additional observations from a re-analysis of the deposited data

How the results depend on the processing

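For single ACRs, 43 results passed (30 between stages and 13 over all 4 stages). Their 744 alternative values kept the call in 655 cases and lost it in 89, and 21 of the 43 held throughout. Between stages 0 changed sign, and the test over all 4 stages has no sign to change. The 744 include removals of libraries from stages outside the comparison. The DESeq2 test lost 16, total counts 9, removal of L6 replicate 2 8 and GC-corrected offsets 7, whereas the count filter, which removed no ACR, lost 0. The 43 values of that filter repeat the main fit, are among the 655 and say nothing on how firm the calls were. The causes were not tested. Of 57 results that had not passed, alternatives moved 41 of 991 values past the threshold. With 1 library left out, the lone library of a stage was assumed to vary like the other stages.

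Ranges with each library left out are given first, whether or not they moved, and then the counts that moved by over 1.5 times. With each library left out, members higher ranged over 4 to 7 at L6 against DS, 0 to 1 at L26 against L6, 0 to 1 at L57 against L26 and 1 to 3 at L57 against DS, and members lower over 3 to 4, 2 to 5, 1 to 3 and 5 to 8, with 12 to 14 over all 4 stages. The single higher member at L26 against L6 was lost without either L6 library, that at L57 against L26 without either L6 library, L26 replicate 1 or L57 replicate 2, and at L57 against DS the number was 3 without either L26 library and 2 without either L6 library or L57 replicate 1. In DESeq2, 4 were higher at L6 against DS, 0 at L26 against L6 and 0 at L57 against L26, and 2 were lower at L26 against L6, 1 at L57 against L26 and 5 at L57 against DS. The 11 members above the median CPM gave 4 higher and 2 lower at L6 against DS, 1 lower at L57 against L26, 2 higher and 5 lower at L57 against DS, and 8 over all 4 stages. The 4 members at gene starts (400 bp upstream to 100 bp downstream) gave 1 higher and 1 lower at L6 against DS, 0 higher and 1 lower at both later steps, 0 higher and 3 lower at L57 against DS, and 3 over all 4 stages. With total counts, 2 were higher at L26 against L6, 0 higher and 1 lower at L57 against L26, and 3 higher at L57 against DS. GC-corrected offsets gave 0 higher and 1 lower at L57 against L26 and 2 higher at L57 against DS. TMM factors and DESeq2 size factors gave 0 higher at L57 against L26 and 2 higher at L57 against DS, the legacy form 3 higher at L57 against DS, and the compared stages alone 0 higher at L57 against L26.

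The replicate numbers did not pair the libraries (correlations of replicate differences between stages of −0.041 to 0.023). With the replicate block, 6 members were higher at L6 against DS, 0 at L57 against L26 and 1 at L57 against DS, and 13 changed over all 4 stages. Calls lost with the block were GA2OX2 at 590 bp, L6 against DS (adjusted p = 0.0526), and GA3OX2 at 1235 bp, L57 against L26 (0.0504).

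Over all ACRs, higher calls were 55.1% of calls at L6 against DS, and 44.7% with total counts and 71.1% in DESeq2. At L26 against L6 they were 52.4%, and 62.6% with total counts and 38.6% in DESeq2. At L57 against L26 they were 54.9%, and 40.9% in DESeq2. Depth limited L57 most, as 1534759 and 1853894 counts stood behind its libraries.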
